A study of Glycine max with 48 samples.

Results

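The circadian clock genes described here are 10 genes of the soybean flower, taken by identifier from a list of clock genes, out of 57147 identifiers in the files. They are 4 copies of LATE ELONGATED HYPOCOTYL (LHY: GLYMA_16G017400, GLYMA_07G048500, GLYMA_03G261800 and GLYMA_19G260900), the pseudo-response regulators PRR3b (GLYMA_12G073900) and PRR3a (GLYMA_U034500), the evening complex genes ELF3, known in soybean as J (GLYMA_04G050200), LUX1 (GLYMA_12G060200) and LUX2 (GLYMA_11G136600), and GIGANTEA, known as E2 (GLYMA_10G221500). Each had a value in all 48 libraries.

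The plant clock is a loop of genes that repress one another through the day. LHY is a MYB factor that accumulates around dawn and holds down genes of the evening, the PRR proteins repress LHY during the day, and ELF3 and LUX act together at night in the evening complex, which in Arabidopsis loses activity in warmth. GIGANTEA peaks towards evening and links the clock to day length. In soybean, J, E2, PRR3a and PRR3b are also known as genes that set flowering time.

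RNA was sequenced from sepals, anthers, ovaries and stigmas of soybean cultivar Magellan under 4 treatments, which made 16 groups of 3 libraries. All plants were 16 to 18 days old at assignment and had 12 h of light and 12 h of dark. Control plants had full water at 28/24 °C (day/night), and water deficit plants had the same temperatures with 30% of the water. Heat plants had full water at 38/28 °C, and combined stress plants had those temperatures with 30% of the water. Temperature was raised between 6 and 8 h and lowered between 16 and 20 h. Each library was a separate biological repeat, a pool of 10 to 15 flowers from 8 to 10 plants. The labels give no hour of sampling, and for genes whose level follows the hour, sampling hour and treatment cannot be told apart. The plants stood in 4 chambers. If each treatment had its own, effects of chamber and of treatment are likewise confounded and cannot be told apart. In whole organs, fewer cells of a type and less RNA per cell cannot be told apart.

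Values are FPKM, a level per gene length and per library size. They sum to between 589041 and 664386 per library, and the absolute depth is unknown. Anthers under combined stress stood apart as a group: the median log2 fold change over all tested genes against control was 0.61, and 0.04 once each library was rescaled by its median-of-ratios factor. Against heat it was 0.36 as deposited. For heat against control in anthers the median was 0.20 as deposited and −0.01 after that rescaling. Anther changes are therefore given on both scales. A further measure is the percentage of all FPKM held by 1757 anther-enriched genes, whose mean over the 12 anther libraries was at least 5 FPKM and at least 8-fold that of each other organ. LUX1 is one of them. This percentage was 54.2 to 60.3% in control anthers, 48.25 to 54.84% under heat and 30.6 to 40.9% under combined stress. Its part in any result was not tested. Organ labels were not checked against named markers, because no identifier was matched to a name.

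Log2 fold changes below are differences of mean log2(FPKM + 1), which understate the change of low genes, and a gene was called where the limma adjusted p over all tested genes of the organ was under 0.05. Single values are given in the order of replicates 1, 2 and 3. Groups of 3 often separate. Of all tested genes, combined stress lay wholly above control for 58.5% in anthers, 18.6% in ovaries and 20.6% in stigmas. Heat did for 29%, 16.1% and 18.3%. Above water deficit, combined stress lay for 55.7%, 17% and 14.4%. In anthers it lay above heat for 37.1% and below heat for 10.5%. Combined stress lay below control for 12.2% in anthers, 22.7% in stigmas and 26.9% in sepals, and heat did for 9.43%, 16.9% and 19.5%.

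Water deficit alone moved none of the clock genes past the threshold. limma called 0 of 9 tested members in sepals and 0 of 10 in anthers, ovaries and stigmas, and in each organ 0 members had an unadjusted p under 0.05. Of all tested genes, 0.208% were called in sepals, 0.00351% in anthers, 0.234% in ovaries and 0.164% in stigmas, so that the members' count is near the background.

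Heat at full water raised 1 clock gene in anthers, 3 in ovaries and 3 in stigmas, where 14.5%, 5.99% and 6.77% of all tested genes were called higher. Genes called in either direction made up 18.5% in anthers, 16.8% in ovaries and 13.9% in stigmas. In sepals limma called 0 of 9 members, against 11.3% of all genes, and 1 member had an unadjusted p under 0.05. Under combined stress 6 of 10 members were called in anthers, 3 in ovaries, 4 in stigmas and 0 of 9 in sepals, where 1 had an unadjusted p under 0.05. The corresponding shares of all genes were 62.4%, 27.5%, 26% and 24.1%. The anther and ovary counts are near those shares, the stigma count is above its share and the sepal count below. No count, for heat or for combined stress, was tested against its share. With 9 or 10 members, none is read as a difference from it. The median log2 fold change of the members under combined stress was 0.56 in anthers, 0.23 in ovaries, 0.43 in stigmas and 0.12 in sepals, beside 0.61, −0.02, −0.01 and −0.10 over all tested genes.

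Heat can also be read at low water, as combined stress against water deficit, in libraries that heat against control does not use. Both tests take their spread from all 12 libraries of the organ, so that they are not independent. There 6 of 10 members were called in anthers, 2 in ovaries, 3 in stigmas and 0 of 9 in sepals, where 0 members had an unadjusted p under 0.05. Of all genes, 61% were called in anthers, 21.3% in ovaries, 16.7% in stigmas and 15.2% in sepals. The mean effect of heat over both water levels, a contrast chosen after values were seen, called 4 members in anthers (59.4% of all genes), 3 in ovaries (34.4%), 5 in stigmas (31.6%) and 1 of 9 in sepals (27.8%).

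**Figure D1:**
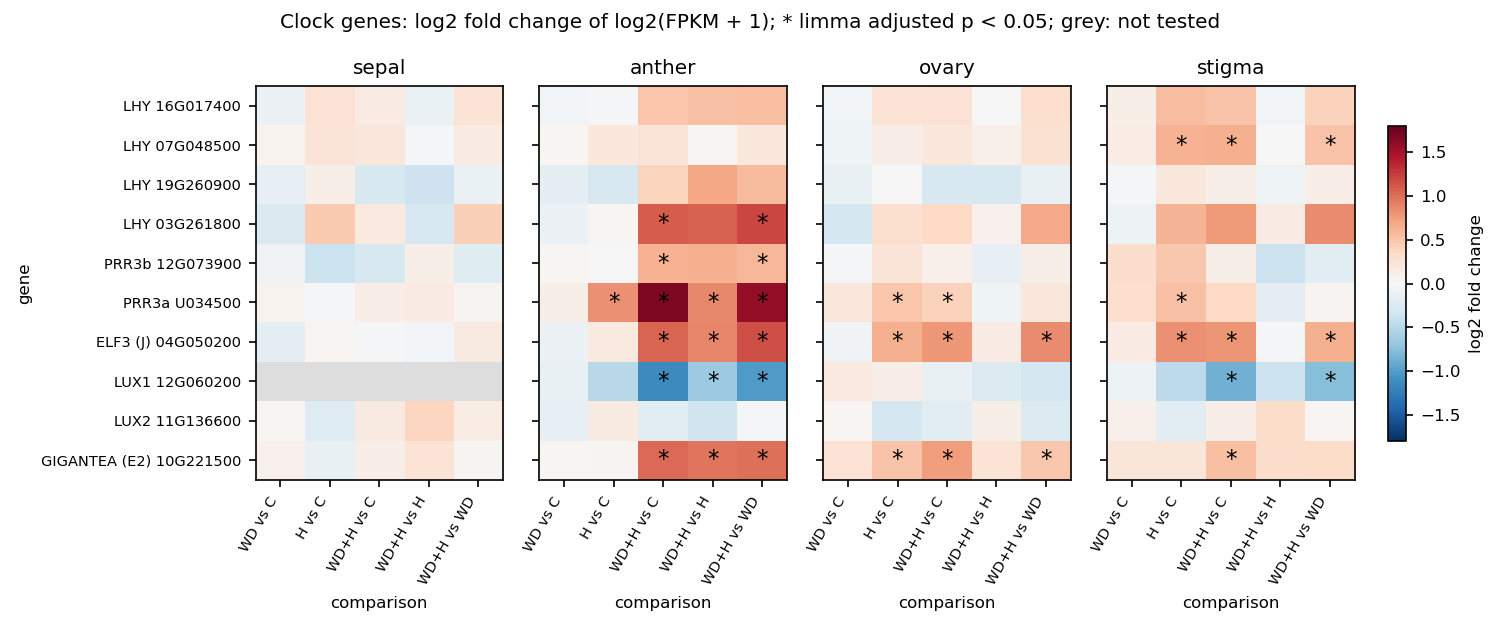
Log2 fold change of each clock gene (rows) in 5 comparisons (columns; C is control, WD water deficit, H heat and WD+H combined stress) in each organ, on the log2(FPKM + 1) scale as deposited. Asterisks mark a limma adjusted p under 0.05 and grey marks LUX1 in sepals, which was below the filter; no asterisk stands in sepals or in the comparison of water deficit with control, and the darkest cell is PRR3a in anthers under combined stress, 1.69.

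LHY, the dawn repressor, was the most abundant of the clock genes when its copies were summed, and was highest in sepals. Single copies did not all rank so: in control anthers only GLYMA_16G017400 exceeded LUX1. The copy GLYMA_16G017400 measured 221, 203 and 236 FPKM in control sepals, a mean of 220.1 ± 16.8 (SD, n = 3), which placed it at rank 263 of all genes there. Its control means were 110 ± 24.7 FPKM in stigmas, 104 ± 14.3 in ovaries and 78.1 ± 15.9 in anthers (SD, n = 3). The sepal values lay above all of these, whereas neighbours in the order stigma, ovary and anther overlapped. Levels across organs come from separate files and were not tested.

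The other copies were lower on the same per-length scale. GLYMA_03G261800 averaged 86.3 ± 21.7 FPKM in control sepals and 31 ± 17.1 in control anthers, and GLYMA_07G048500 averaged 79.2 ± 5.94 and 39 ± 3.47 FPKM (SD, n = 3). GLYMA_19G260900 was the lowest copy, at 45.6 ± 5.02 FPKM in control sepals and 8.08 ± 4.39 in control anthers. Summed over the 4 copies, LHY stood at 431 ± 48.4 FPKM in control sepals and 156 ± 40.3 in control anthers. The copy GLYMA_16G017400 held a mean of 47.0 to 52.0% of that sum in every one of the 16 groups. Reads from near-identical copies may have been shared out between them by the counting, which the labels do not describe, so that the level of each single copy is uncertain.

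In stigmas 1 of the 4 LHY copies, GLYMA_07G048500, was called higher under heat. It measured 43.4, 35.8 and 50.2 FPKM in control stigmas, 43.5, 42.6 and 55.5 under water deficit, 61.0, 73.6 and 65.9 under heat and 57.5, 75.5 and 69.8 under combined stress. All 6 heated stigmas lay above all 6 unheated ones. The change was 0.63 on the log2 scale under heat (SE 0.15, limma adjusted p = 0.0187) and 0.64 under combined stress (SE 0.15, limma adjusted p = 0.00924). The heat call was lost without control replicate 1 (adjusted p = 0.0533), control replicate 2 (0.0652) or heat replicate 2 (0.0638). The combined stress call held under every alternative. Combined stress against water deficit, which shares no library with heat against control, gave 0.51 (SE 0.15, limma adjusted p = 0.0367), a call lost without water deficit replicate 1 or 2 or combined replicate 2 or 3 (adjusted p from 0.0921 to 0.135). It was also lost with no filter (adjusted p = 0.0547), with no trend or robust moderation (0.0536) and with a fit of these groups alone (0.0611).

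A second copy, GLYMA_16G017400, measured 110, 85.1 and 134 FPKM in control stigmas, 106, 105 and 140 under water deficit, 142, 178 and 160 under heat and 122, 195 and 153 under combined stress. Heated values overlapped unheated ones through combined replicate 1. Averaged over both water levels, its heat effect was 0.48 (SE 0.14, limma adjusted p = 0.0198). GLYMA_03G261800 showed 0.73 (SE 0.22, limma adjusted p = 0.0273). Its call was lost without control replicate 1 or 2, water deficit replicate 1 or 2, heat replicate 2 or combined replicate 2 (adjusted p from 0.0516 to 0.0665). The fourth copy, GLYMA_19G260900, had a value of 0.15 (SE 0.15, limma adjusted p = 0.468).

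In anthers 1 copy of LHY passed the threshold. GLYMA_03G261800 measured 22.4, 19.8 and 50.7 FPKM in control anthers, 25.3, 28.5 and 33.5 under heat and 44.6, 45.6 and 114 under combined stress. Control replicate 3 and combined replicate 3 were the highest of their groups, and these groups overlapped. The change under combined stress was 1.09 as deposited (SE 0.39, limma adjusted p = 0.0293), and 0.33 after median-of-ratios scaling (limma adjusted p = 0.539). The call was also lost without control replicate 1 (adjusted p = 0.102), control replicate 2 (0.11) or combined replicate 3 (0.124), where it became 0.65. Leaving out anther-enriched genes gave 0.62 (adjusted p = 0.199), and a fit of these groups alone gave an adjusted p of 0.088. Combined stress against water deficit gave 1.2 (SE 0.39, limma adjusted p = 0.0199), lost after median-of-ratios scaling (adjusted p = 0.415), with anther-enriched genes left out (0.154) and without water deficit replicate 3 (0.0715) or combined replicate 3 (0.0815). In sepals and ovaries no LHY copy was called in any comparison.

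**Figure D2:**
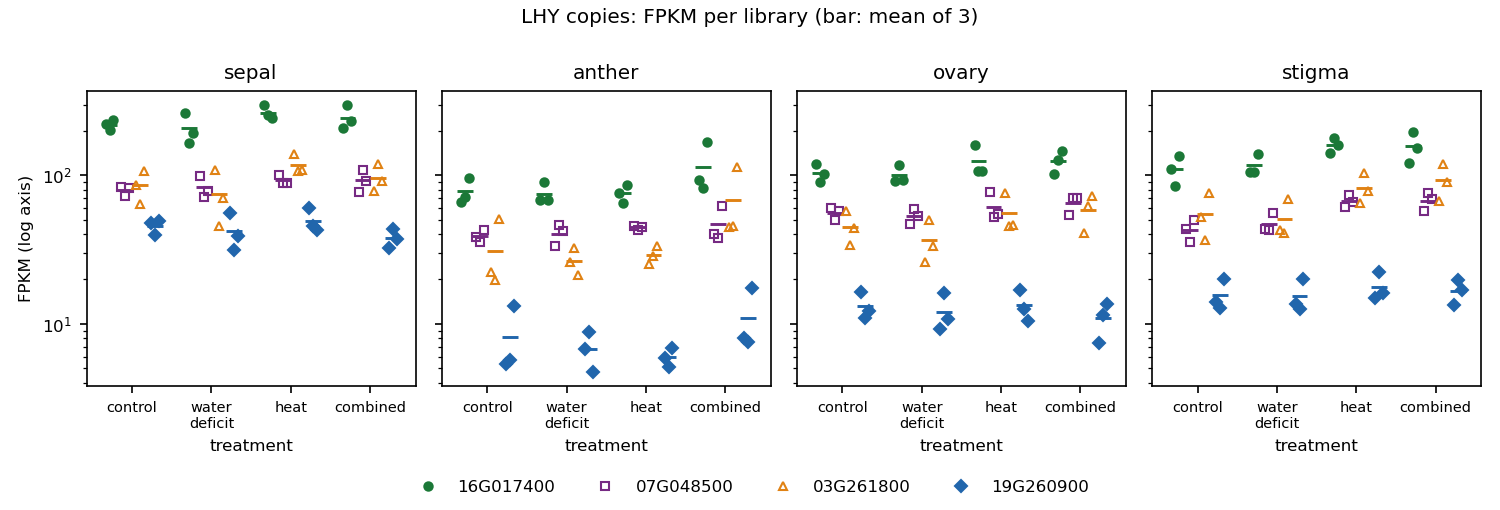
FPKM of the 4 LHY copies in each library (points, log axis) by treatment, one panel per organ, with a bar at the mean of 3 libraries. GLYMA_16G017400 is the highest copy throughout and GLYMA_19G260900 the lowest, and in stigmas the heat and combined stress points of GLYMA_07G048500 lie above its control and water deficit points.

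PRR3a and PRR3b, day-phase repressors of LHY, differed from each other in anthers. PRR3a measured 4.36, 6.71 and 4.91 FPKM in control anthers, 7.37, 4.80 and 5.32 under water deficit, 12.4, 8.50 and 9.50 under heat and 20.3, 18.8 and 18.3 under combined stress. The heated groups lay above both unheated groups, and combined stress lay above heat, with no overlap. Heat gave 0.82 (SE 0.19, limma adjusted p = 0.0135) and combined stress 1.69 (SE 0.19, limma adjusted p = 5.62e-05). Combined stress against water deficit gave 1.58 (SE 0.19, limma adjusted p = 0.000105), and 0.87 after median-of-ratios scaling (adjusted p = 0.00186). After that scaling heat against control gave 0.57 (adjusted p = 0.0397) and combined stress against control 0.97 (adjusted p = 0.000723), and the latter call held in every alternative. The heat call was lost without control replicate 1 (adjusted p = 0.058) or heat replicate 1 (0.0581). Over all tested genes the median heat change in anthers was 0.20 as deposited. Heat replicate 1 had an anther-enriched share of 48.25%, beside 54.84% and 53.36% in replicates 2 and 3. The part of this share in the heat call was not tested.

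Adding water deficit to heat was also called for PRR3a in anthers as deposited. Combined stress against heat gave 0.87 (SE 0.19, limma adjusted p = 0.00815), beside 0.41 (adjusted p = 0.123) after median-of-ratios scaling and 0.55 (adjusted p = 0.0635) with anther-enriched genes left out. In that comparison 4 of 10 members were called, against 33.8% of all genes. In sepals, ovaries and stigmas limma called 0 members, against 3.35%, 0.789% and 1.13% of all genes, and 0, 0 and 2 members had an unadjusted p under 0.05.

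PRR3b measured 6.68, 8.50 and 5.64 FPKM in control anthers, 9.72, 6.70 and 4.78 under heat and 12.2, 12.2 and 9.27 under combined stress. Combined stress lay above control, but heat overlapped both. Its combined stress change was 0.63 as deposited (SE 0.24, limma adjusted p = 0.0393), about the shift of all genes, and −0.07 after median-of-ratios scaling (limma adjusted p = 0.829), so that its direction depends on the scaling. It was also lost without control replicate 1 or 3 or combined replicate 1 or 2 (adjusted p from 0.0912 to 0.129), with no filter (0.061) and with anther-enriched genes left out (0.519).

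In ovaries PRR3a measured 19, 21.6 and 20 FPKM under control, 24.9, 20.5 and 25.1 under water deficit, 26.4, 28.8 and 31.6 under heat and 32.9, 24.9 and 24.6 under combined stress. Both heated groups lay above control, and combined stress overlapped water deficit. Heat gave 0.49 (SE 0.12, limma adjusted p = 0.0183) and combined stress 0.41 (SE 0.12, limma adjusted p = 0.0271). The heat call was lost without control replicate 1 or 3 or heat replicate 2 or 3 (adjusted p from 0.0505 to 0.0681). The combined stress call was lost without control replicate 1 or 3 or combined replicate 1 (adjusted p from 0.0673 to 0.101), and with a fit of these groups alone (0.055). In stigmas the heat call of PRR3a, 0.53 (SE 0.16, limma adjusted p = 0.0469), was lost whichever of the 6 libraries was left out (adjusted p from 0.0595 to 0.162), with no filter (0.0688), with no trend or robust moderation (0.0636) and with a replicate block (0.0711).

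In sepals PRR3b was the single member with an unadjusted p under 0.05 under heat or combined stress. It measured 24.2, 23.4 and 24.1 FPKM under control, 25.0, 25.5 and 18.7 under water deficit, 16.4, 20.3 and 17.9 under heat and 18.4, 19.5 and 20.5 under combined stress. Both heated groups lay below control. Water deficit replicate 3 fell among the heated values. The mean heat effect over both water levels was −0.30 (SE 0.08, limma adjusted p = 0.0191), and −0.23 (adjusted p = 0.0597) after median-of-ratios scaling.

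ELF3 (J), the scaffold of the evening complex, rose with heat in ovaries and stigmas. In ovaries it measured 5.57, 5.85 and 4.86 FPKM under control, 4.94, 5.83 and 4.67 under water deficit, 9.86, 8.20 and 8.97 under heat and 9.15, 10.2 and 10.7 under combined stress. All 6 heated ovaries lay above all 6 unheated ones. The change was 0.64 under heat (SE 0.11, limma adjusted p = 0.00293) and 0.78 under combined stress (SE 0.11, limma adjusted p = 0.00041). Combined stress against water deficit, in other libraries than heat against control, gave 0.85 (SE 0.11, limma adjusted p = 0.000453). The 3 calls of ELF3 in ovaries held under every alternative.

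In stigmas ELF3 measured 4.58, 4.39 and 4.79 FPKM under control, 4.42, 4.36 and 7.24 under water deficit, 8.88, 10.2 and 7.70 under heat and 9.34, 9.80 and 7.16 under combined stress. Heated stigmas lay above control, while water deficit replicate 3 reached into the combined stress range. Heat gave 0.82 (SE 0.17, limma adjusted p = 0.0113) and combined stress 0.80 (SE 0.17, limma adjusted p = 0.00655), and both held under every alternative. Against water deficit, combined stress gave 0.64 (SE 0.17, limma adjusted p = 0.0262). That call was lost without water deficit replicate 1 or 2 or combined replicate 1 or 2 (adjusted p from 0.0817 to 0.099), with a fit of these groups alone (0.0743) and with a replicate block (0.05002).

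ELF3 in sepals was not called in any comparison. Its values were 8.17, 8.56 and 6.87 FPKM under control, 8.88, 6.71 and 8.67 under heat and 7.14, 8.53 and 7.63 under combined stress, and these groups overlapped. Water deficit sepals had 6.75 to 6.89 FPKM, below all combined stress sepals. Among all tested genes 12.9% were separated in this direction between these groups. The response to combined stress was 0.80 larger in ovaries than in sepals on the log2 scale (SE 0.16, limma adjusted p = 0.00358), and 0.81 larger in stigmas (SE 0.21, limma adjusted p = 0.0235). Among all genes, 7.93% and 8.17% differed in these comparisons. The ovary difference was 0.70 after median-of-ratios scaling (adjusted p = 0.0149). It missed the threshold without replicate 1 (adjusted p = 0.0763) or 3 (0.0644) of every group. The stigma difference was 0.69 after that scaling (adjusted p = 0.083).

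In anthers ELF3 was lower, at 1.34, 2.71 and 2.24 FPKM under control, 2.82, 2.19 and 2.32 under heat and 4.58, 4.22 and 7.57 under combined stress. Combined stress lay above both. The change was 1.05 as deposited (SE 0.23, limma adjusted p = 0.00241) and 0.46 (adjusted p = 0.0993) after median-of-ratios scaling. Against heat it was 0.88 (SE 0.23, limma adjusted p = 0.016), which was lost without combined replicate 3 (adjusted p = 0.0657), after median-of-ratios scaling (0.14) and with anther-enriched genes left out (0.0939).

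GIGANTEA (E2) rose in ovaries. It measured 19.2, 23.3 and 22.0 FPKM under control, 28.0, 22.3 and 27.6 under water deficit, 27.7, 33.7 and 31.7 under heat and 42.8, 38.2 and 30.2 under combined stress. Both heated groups lay above control, and combined stress also lay above water deficit. Combined stress gave 0.75 (SE 0.14, limma adjusted p = 0.00187), which held under every alternative. Heat gave 0.51 (SE 0.14, limma adjusted p = 0.0244), lost without control replicate 1 or 3 or heat replicate 2 or 3 (adjusted p from 0.0534 to 0.0948). Against water deficit, combined stress gave 0.49 (SE 0.14, limma adjusted p = 0.0244), lost without water deficit replicate 2 or combined replicate 1 or 2 (adjusted p from 0.0702 to 0.0892) and with a fit of these groups alone (0.0621).

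In anthers GIGANTEA measured 13.2, 17.5 and 17.8 FPKM under control, 19.3, 14.0 and 16.3 under water deficit, 20.6, 17.7 and 12.5 under heat and 36.2, 30.1 and 34.5 under combined stress. Combined stress lay above the other 3 groups, which overlapped one another. Among all tested genes, 58.5% were separated in this direction from control, 37.1% from heat and 55.7% from water deficit. The change against control was 1.02 as deposited (SE 0.19, limma adjusted p = 0.00102) and 0.27 (adjusted p = 0.268) after median-of-ratios scaling. Against heat it was 0.97 (SE 0.19, limma adjusted p = 0.00551) and 0.50 (adjusted p = 0.0857) on the same scales. The interaction of heat and water deficit was 0.94 for GIGANTEA (SE 0.27, limma adjusted p = 0.0684), and 0.48 after median-of-ratios scaling (adjusted p = 0.349). limma called 0 members for the interaction in each organ, against 0.0422% of genes in sepals, 0.28% in anthers, 0.015% in ovaries and 0% in stigmas. Members with an unadjusted p under 0.05 numbered 0, 3, 0 and 1 in that order.

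In stigmas GIGANTEA measured 21.1, 21.9 and 20.3 FPKM under control, 29.4, 20.0 and 25.6 under heat and 32.9, 28.3 and 32.5 under combined stress. Combined stress lay above control and heat overlapped control. The combined stress change was 0.54 (SE 0.14, limma adjusted p = 0.0145), which was lost without combined replicate 1 (adjusted p = 0.0518). In sepals its single libraries ranged from 22.2 to 39.1 FPKM, with all 4 groups overlapping.

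**Figure D3:**
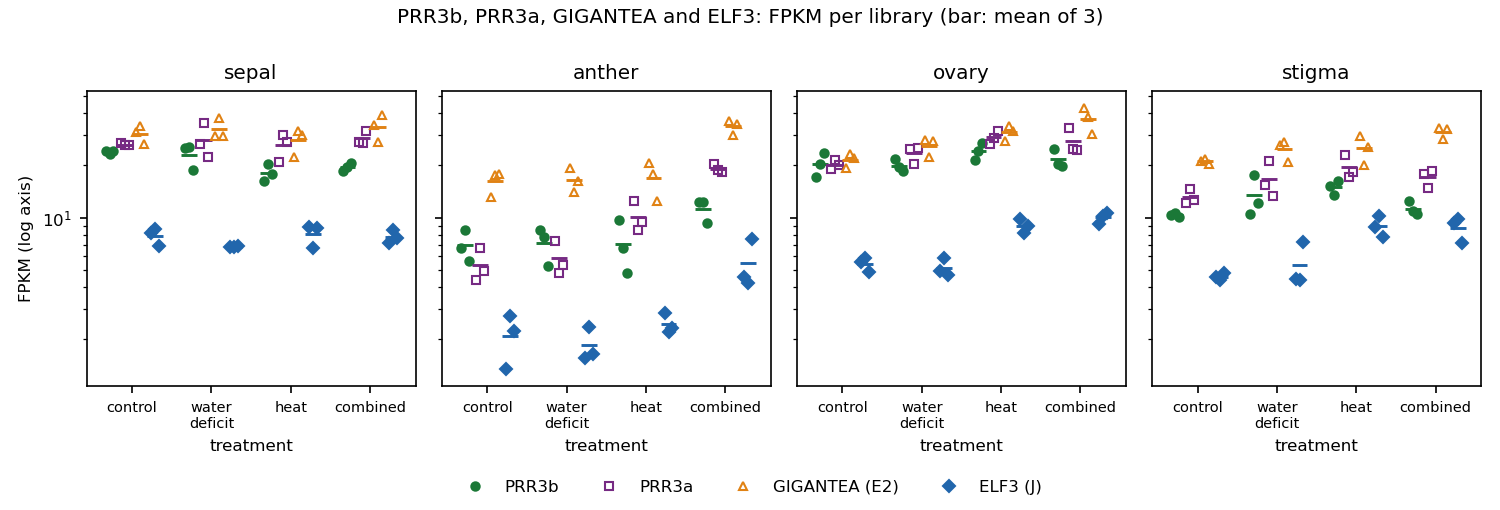
FPKM of PRR3b, PRR3a, GIGANTEA and ELF3 in each library (points, log axis) by treatment, one panel per organ, with a bar at the mean of 3 libraries. In anthers the PRR3a points rise from 4.36 to 7.37 FPKM in unheated libraries to 18.3 to 20.3 under combined stress, and in ovaries and stigmas the heated ELF3 points lie above the control points.

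LUX1 and LUX2, the DNA-binding MYB-like parts of the evening complex, were highest in anthers. LUX1 averaged 42.4 FPKM in control anthers, 2.80 in stigmas, 1.82 in ovaries and 0.981 in sepals, and LUX2 averaged 16.9, 1.91, 1.52 and 2.28. LUX1 was below the filter in sepals and was not tested there. Sepal control replicate 3 had 1.75 FPKM of LUX1, beside 0.733 and 0.46 in the other two, and its share of anther-enriched genes was 2.29%, beside 0.363% and 0.567%.

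LUX1 fell in anthers under combined stress. It measured 48.2, 38.5 and 40.4 FPKM under control, 37.2, 39.4 and 38.6 under water deficit, 28.2, 32.1 and 28.5 under heat and 20.1, 23.2 and 13.5 under combined stress. Heat lay below both unheated groups and combined stress lay below heat, with no overlap. Combined stress fell by 1.15 on the log2 scale (SE 0.17, limma adjusted p = 0.00028), and by 1.89 after median-of-ratios scaling (adjusted p = 0.000141), and the call held under every alternative. Among all genes 10.7% were called lower and 51.8% higher. The heat value was −0.50 (SE 0.17, limma adjusted p = 0.0652), and −0.79 after median-of-ratios scaling (adjusted p = 0.0546). Combined stress against heat was −0.65 (SE 0.17, limma adjusted p = 0.017), lost without heat replicate 2 (adjusted p = 0.0535) and with a fit of these groups alone (0.0622), and −1.10 after median-of-ratios scaling (adjusted p = 0.0124).

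LUX2 measured 21.6, 14.9 and 14.3 FPKM in control anthers, 20.6, 14.8 and 21.6 under heat and 13.3, 19.8 and 11.3 under combined stress, with all groups overlapping. Its combined stress value was −0.19 as deposited (SE 0.23, limma adjusted p = 0.476) and −0.92 (adjusted p = 0.0337) after median-of-ratios scaling. On that scaling 3 members were called in anthers under combined stress, 1 higher (PRR3a) and 2 lower (LUX1 and LUX2), in place of 5 higher and 1 lower as deposited. Over all genes it called 4201 higher and 5906 lower, in place of 14766 and 3044.

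In stigmas LUX1 was low and fell under combined stress. It measured 2.96, 2.43 and 3.00 FPKM under control, 4.31, 1.70 and 2.11 under water deficit, 1.59, 1.45 and 2.17 under heat and 0.669, 1.2 and 1.45 under combined stress. Both heated groups lay below control. The combined stress change was −0.86 (SE 0.24, limma adjusted p = 0.0207), lost without control replicate 1 or 3 or combined replicate 1 (adjusted p from 0.0565 to 0.0799). The share of anther-enriched genes in these stigmas was 4.61, 2.27 and 1.78% under control and 0.502, 0.958 and 1.29% under combined stress, and its part in the LUX1 result was not tested.

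**Figure D4:**
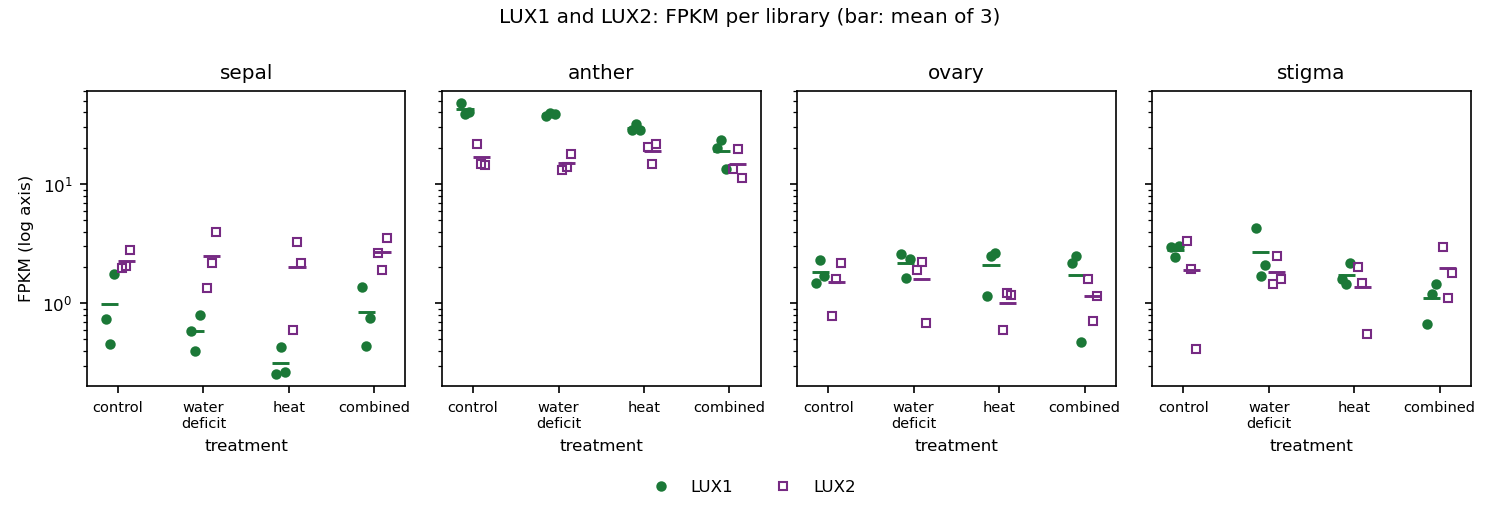
FPKM of LUX1 and LUX2 in each library (points, log axis) by treatment, one panel per organ, with a bar at the mean of 3 libraries. In anthers LUX1 goes from 38.5 to 48.2 FPKM under control to 13.5 to 23.2 under combined stress, while LUX2 groups overlap, and the other organs stay below 5 FPKM.

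The FPKM ratio of 2 copies within a library does not depend on how that library was scaled. The ratios tested hold a pseudocount of 1 FPKM on each copy, through which scaling can still reach low genes. Copies were compared as pairs, each stress against control (39 tests, exact two-sided permutation, smallest possible p = 0.1, 0 with an adjusted p under 0.05). In a comparison chosen after values were seen, 6 heated libraries of an organ were set against 6 unheated ones by an exact two-sided permutation test within water levels, whose smallest possible p is 0.005. Of 13 such tests, 7 had an adjusted p under 0.05.

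In this comparison chosen after values were seen, the LHY pair GLYMA_19G260900 and GLYMA_03G261800 had a lower ratio in heated libraries of all 4 organs. The adjusted p covers the 13 tests and not the choice of comparison. The FPKM ratio of the first to the second was 0.457 to 0.688 in unheated sepals and 0.365 to 0.435 in heated ones, with medians of 0.555 and 0.409. In ovaries it was 0.276 to 0.351 unheated and 0.180 to 0.276 heated, with medians of 0.322 and 0.206. Heated sepals and stigmas lay wholly below unheated ones, in ovaries the ranges met at 0.276, and in anthers they overlapped. The heated minus unheated log2 ratio was −0.46 in sepals, −0.48 in anthers, −0.55 in ovaries and −0.58 in stigmas, each with an exact permutation p = 0.005, the smallest possible, and an adjusted p of 0.0108. Each of these calls held with any single library left out and with a pseudocount of 0.1 FPKM.

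This ratio also moved with the LHY level among replicates. Across the 48 libraries, after each group's mean was taken off, the log2 ratio had r = −0.638 with log2 summed LHY, as a description over libraries that share organs and treatments. The part of the LHY level in the heat difference was not tested. For the other LHY pair, GLYMA_16G017400 over GLYMA_07G048500, the same r was 0.688. The heated minus unheated comparison of that pair gave log2 differences of 0.07, 0.06, 0.08 and −0.09 in sepals, anthers, ovaries and stigmas, with exact permutation p from 0.12 to 0.66.

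By the same comparison, PRR3b over PRR3a was lower in heated anthers, at 0.503 to 0.787 beside 0.996 to 1.60 in unheated ones, with no overlap. The log2 difference was −0.90 (exact permutation p = 0.005, adjusted 0.0108). In sepals it was −0.31 (exact permutation p = 0.01, adjusted 0.0186), with heated values of 0.651 to 0.787 and unheated values of 0.723 to 0.946. Ovaries gave −0.18 (exact permutation p = 0.045, adjusted 0.0731) and stigmas −0.15 (exact permutation p = 0.175, adjusted 0.19). LUX1 over LUX2, tested in anthers, went from a median of 2.70 unheated to 1.35 heated, a log2 difference of −0.82 (exact permutation p = 0.005, adjusted 0.0108), and the ranges met at 2.16.

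**Figure D5:**
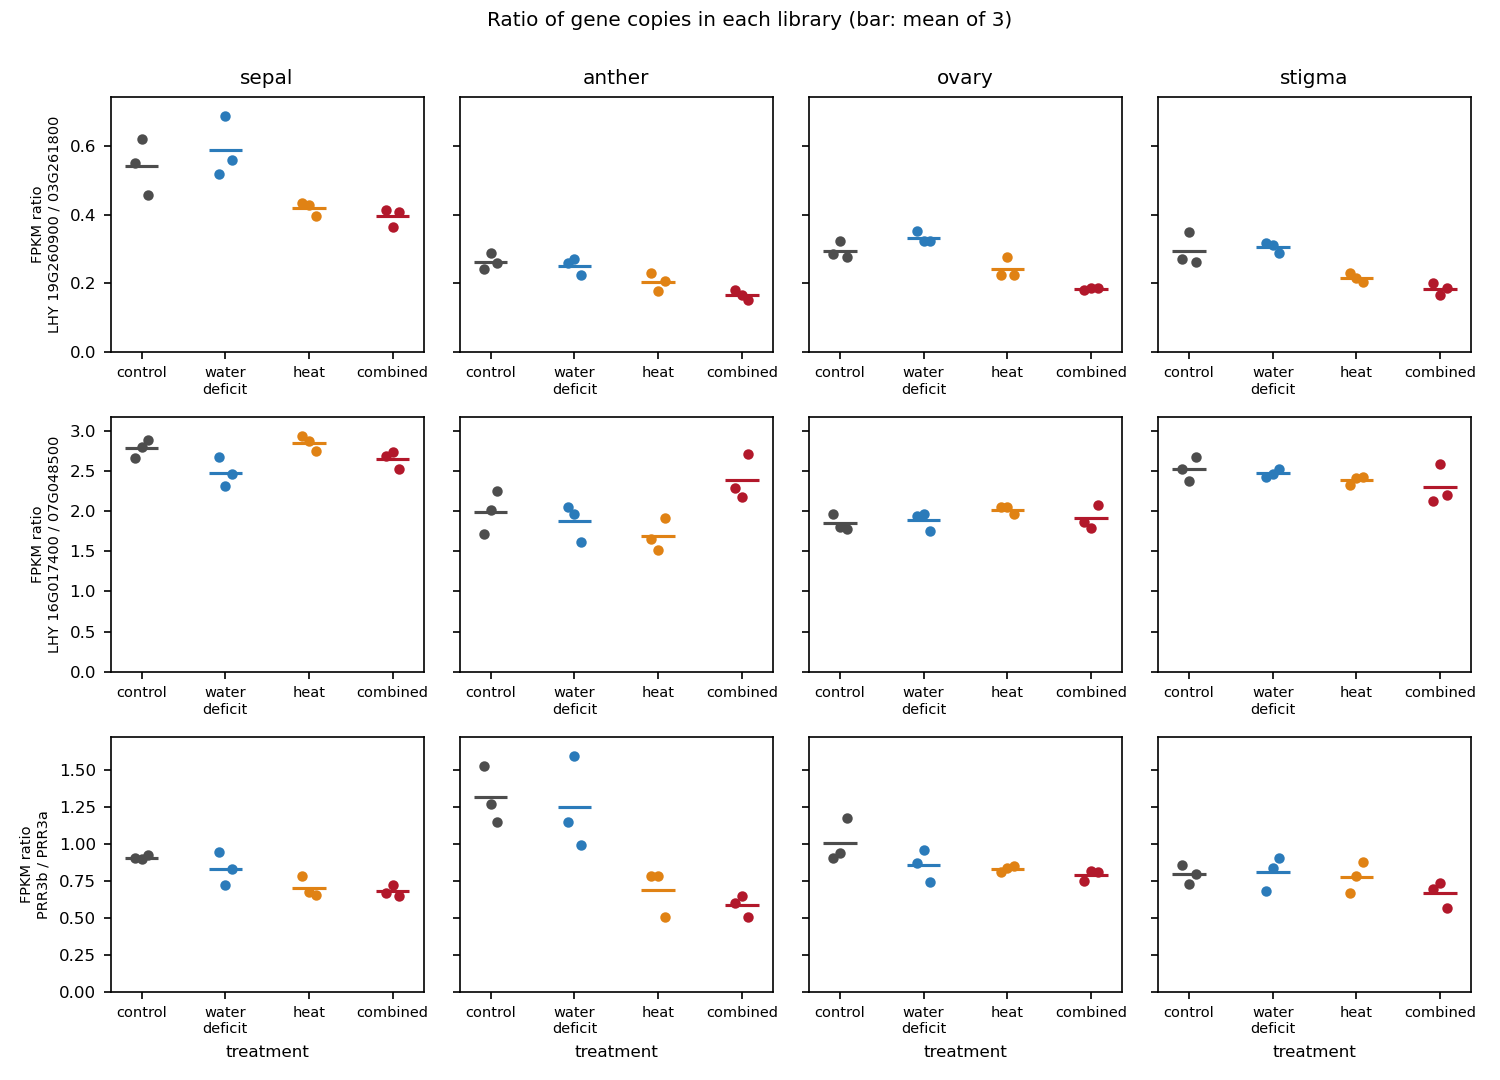
FPKM ratio of 2 gene copies within each library (points) by treatment, with a bar at the mean of 3 libraries, for LHY GLYMA_19G260900 over GLYMA_03G261800 (top), LHY GLYMA_16G017400 over GLYMA_07G048500 (middle) and PRR3b over PRR3a (bottom), one column per organ. In the top row the heat and combined stress points lie low in every organ, with medians of 0.409 in sepals, 0.179 in anthers, 0.206 in ovaries and 0.202 in stigmas.

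Differences in LHY between replicates of one group were shared by its copies. Over 48 libraries, after each group's mean of log2(FPKM + 1) was taken off, the 4 LHY copies had r between 0.831 and 0.959 among themselves. With PRR3a they had r between −0.569 and −0.489, and with GIGANTEA between −0.526 and −0.466. With PRR3b r was between −0.438 and −0.379. Libraries high in LHY for their group thus tended to be low in these later-phase genes. PRR3a and GIGANTEA moved together, with r = 0.752. Of the evening complex genes, LUX2 had r between −0.475 and −0.447 with the LHY copies, and LUX1 between −0.38 and −0.28. ELF3 instead went with LHY, with r between 0.481 and 0.593. These values are descriptions over libraries that share organs, treatments and scaling, and the hour of sampling within a group was not tested as a part of them.

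Among 22515 other genes, the profile most like the mean of the LHY copies over the 16 organ-centred group means belonged to GLYMA_11G154700 (Pearson r = 0.965), which averaged 66.8 FPKM in control sepals, 32.8 in control stigmas and 54.1 in stigmas under combined stress. Nearly tied with it was GLYMA_05G058400, with Pearson r = 0.9646 beside 0.9648. The profile most like GIGANTEA belonged to GLYMA_18G269500 (Pearson r = 0.972), with 6.57 FPKM in control ovaries and 8.43 under combined stress. In anthers it had 1.78 FPKM under control and 3.20 under combined stress. These correlations used values as deposited, which hold the shift of combined stress anthers, and were not computed after rescaling. The genes are given by identifier, since the files pair it with no name.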

How the data were processed

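Per the series' design text, RNA of flower organs was sequenced as paired reads of 150 bases and, per the submitters' processing notes, aligned with HISAT2 2.2.1. The authors deposited FPKM per gene, in 1 file per organ. The counting tool, strand setting, genome build and annotation release were not stated in the labels. Depth is unknown. From low values, relative depth within an organ varied at most 1.6-fold.

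limma 3.58.1 (R 4.3.3, data.table version 1.17.8) was run on log2(FPKM + 1), separately per organ (12 libraries), using trended and robust moderation. Genes with a mean of 1 FPKM or more in any group entered the test, and p was adjusted by Benjamini-Hochberg over all tested genes, two-sided. Differences between organs were tested on 24 libraries, without pairing by replicate number. Copy ratios, as log2 of (FPKM + 1) over (FPKM + 1), were tested by exact permutation. Alternatives were pseudocounts of 0.1 and 5 FPKM, no filter and a filter of 5 FPKM, median-of-ratios scaling, anther-enriched genes left out, no trend or robust moderation, only the groups compared, a replicate block, and each replicate left out.

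The members and lists were chosen with earlier results of these data known. All 10 members are described. Genes of like profile are the highest Pearson correlations with the LHY mean and with GIGANTEA among genes of at least 5 FPKM in a group and tested in 4 organs. Of 57147 identifiers, 0 matched the reference gene table, so that lists of other clock genes and cell type markers, promoter motifs and protein identity were not run. Scripts were tested on simulated data, with changes set in genes of at least 5 FPKM. For heat against control, limma recovered 36% of 1.5-fold changes in sepals, 12% in anthers, 44% in ovaries and 36% in stigmas. Of 2-fold changes it recovered 88%, 56%, 88% and 84% in that order. A gene that was not called may thus have changed. Figures used matplotlib 3.10.9 under Python 3.11.15.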

Additional observations from a re-analysis of the deposited data

Results flagged for a closer look

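Responses of clock genes that differed between organs as deposited, by limma's test of the difference itself on the log2 scale, are given here. Differences called only after median-of-ratios scaling come last, and the share of all genes called on that scaling was not computed. None of them was weighed against an explanation.

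Under combined stress the response in anthers exceeded that in sepals by 1.57 for PRR3a (SE 0.26, adjusted p = 0.00011), 1.07 for ELF3 (SE 0.26, adjusted p = 0.00209), 0.92 for PRR3b (SE 0.28, adjusted p = 0.00943) and 0.90 for GIGANTEA (SE 0.26, adjusted p = 0.00786), where 57.5% of all genes differed. After median-of-ratios scaling PRR3a kept a difference of 0.63 (adjusted p = 0.0445), ELF3 had 0.27 (adjusted p = 0.473), and PRR3b and GIGANTEA changed sign. Without replicate 1 of every group the differences of PRR3b (adjusted p = 0.0871), ELF3 (0.0534) and GIGANTEA (0.092) missed the threshold, and without replicate 2 those of PRR3b (0.0577) and GIGANTEA (0.0599) did. The PRR3a response to heat alone was larger in anthers than in sepals by 0.85 (SE 0.26, adjusted p = 0.0304), where 15.8% of all genes differed. That call was lost after median-of-ratios scaling (adjusted p = 0.257) and without replicate 1 (0.416) or 3 (0.174). The PRR3a response to combined stress was smaller in ovaries than in anthers (−1.27, SE 0.23, adjusted p = 0.000257) and smaller in stigmas than in anthers (−1.33, SE 0.26, adjusted p = 0.000622), and after median-of-ratios scaling these were −0.47 (adjusted p = 0.0887) and −0.60 (0.0504). Over all genes 52.3% differed between ovaries and anthers and 45.3% between stigmas and anthers, of which most were lower, with 47.4% and 41.2% of all genes called lower. LUX1 fell in anthers under combined stress, and its response in ovaries was higher than that by 1.01 (SE 0.37, adjusted p = 0.0288). This call was lost without replicate 1 (0.261) or 2 (0.0739) of every group. After median-of-ratios scaling the difference was 1.96 (adjusted p = 0.000637).

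ELF3 responses exceeded those of sepals in ovaries by 0.80 under combined stress (SE 0.16, adjusted p = 0.00358) and 0.61 under heat (SE 0.16, adjusted p = 0.0368). In stigmas they exceeded those of sepals by 0.81 under combined stress (SE 0.21, adjusted p = 0.0235) and 0.79 under heat (SE 0.21, adjusted p = 0.0435). Over all genes 3.91% of heat responses differed between ovaries and sepals and 3.72% between stigmas and sepals. Both heat differences of ELF3 were lost after median-of-ratios scaling (adjusted p = 0.0865 in ovaries and 0.119 in stigmas) and whichever replicate number was left out (adjusted p from 0.0519 to 0.394). The combined stress difference in stigmas was also lost without replicate 1 (0.267) or 2 (0.195). For PRR3b the heat response was 0.87 higher in stigmas than in sepals (SE 0.20, adjusted p = 0.0175), which was lost without replicate 1 (0.174) or 3 (0.21). PRR3b measured 15.3, 13.5 and 16.2 FPKM in heated stigmas and 10.4, 10.6 and 10.1 in control ones, with no overlap. Its heat change within stigmas was 0.49 (SE 0.15, limma adjusted p = 0.054). The differences that follow were called only after median-of-ratios scaling. Under combined stress GLYMA_07G048500 gave −1.031 for anthers minus sepals (limma adjusted p = 0.0123). It gave 0.895 for ovaries minus anthers (0.0301) and 1.246 for stigmas minus anthers (0.0044). LUX2 gave −1.316 for anthers minus sepals (0.0419), and LUX1 gave 1.266 for stigmas minus anthers (0.0104). GIGANTEA gave 0.608 for ovaries minus anthers (0.0489), and 0.859 under heat (0.017).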

How the results depend on the processing

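Counts of members called are given first, without some smaller changes. After median-of-ratios scaling they went in anthers from 6 to 3 for combined stress against control, from 4 to 1 against heat, from 6 to 2 against water deficit and from 4 to 2 for the mean heat effect, and in sepals from 1 to 0 for the mean heat effect. With anther-enriched genes left out, anther counts for combined stress went from 6 to 4 against control and from 4 to 2 against heat. They went from 6 to 4 against water deficit, and from 4 to 3 for the mean heat effect. With a filter of 5 FPKM the count was 1 in place of 0 for heat in sepals and for the interaction in anthers. Fitting only the groups compared gave 2 in place of 1 for heat in anthers, 1 in place of 2 for combined stress against water deficit in ovaries and 0 in place of 3 in stigmas, where no filter gave 1. The mean heat effect called 1 member in sepals, 4 in anthers and 5 in stigmas, in place of 0, 1 and 3 for heat against control. Directions that turned after median-of-ratios scaling were those of PRR3b in anthers under combined stress, −0.070 against control and −0.092 against water deficit, and the anther minus sepal responses of PRR3b, −0.056, and of GIGANTEA, −0.12. The cause was not tested.

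With single libraries left out, counts ranged from 1 to 3 for the mean heat effect in sepals. In anthers they ranged from 0 to 1 for heat, 4 to 6 for combined stress, 3 to 5 against heat, 4 to 6 against water deficit, 0 to 1 for the interaction and 4 to 5 for the mean heat effect. In ovaries the ranges were 1 to 3, 2 to 3 and 1 to 2 for heat, combined stress and combined stress against water deficit. In stigmas they were 1 to 3, 3 to 5 and 0 to 2, and 4 to 7 for the mean heat effect.

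Within an organ, replicate numbers gave little sign of pairing between treatments. Of 18 same-numbered pairs per organ, 3 in anthers, 3 in stigmas and 0 in sepals and ovaries had a deviation correlation over 0.1. Same-numbered libraries of different organs were not compared in this way, so that pairing between organs was not tested. With a replicate block the stigma count for combined stress against water deficit was 1 in place of 3. Depth is unknown, so no counting interval could be given, and 3 libraries a group limit what could be called.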
